A study of Homo sapiens with 21 samples.

Results

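OCI-AML5 cells edited at the EPCR gene and control OCI-AML5 cells, both cultured with the vehicle DMSO, were compared by RNA sequencing in 6 of the 21 libraries of the series, chosen by their labels. The line was derived from human acute myeloid leukemia, and the study's methods describe its culture with GM-CSF, while the labels name a medium without that cytokine. The 3 control libraries are labelled as cells in DMSO for 72 h, with no genotype given. The 3 sgEPCR libraries are labelled as a clone expressing a guide RNA against EPCR, named EPCR null in one label and EPCR knockdown in another, in DMSO for 24 h. The study describes 3 guides against EPCR and independent edited clones, but the labels do not say which guide or clone each library holds. The study names the wild-type arm of its EPCR experiment sgAAVS1, cells with a guide against a neutral site, while no label names a guide for the control cells, so whether they carry one is not settled here. Between the 2 kinds of DMSO library genotype and labelled culture time differ together and cannot be told apart, and neither can differences between clones. UM171, a small molecule that expands blood stem cells in culture, was added to the other groups. Their labels give 500 nM, while the study states a lower dose for its EPCR experiment. Among those groups, the 3 control and 3 sgEPCR libraries labelled 24 h in UM171 allow the same genotype comparison at a single labelled time.

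EPCR, the endothelial protein C receptor encoded by PROCR, binds protein C at the cell surface and speeds its activation by thrombin bound to thrombomodulin. Activated protein C cuts coagulation factors and, on EPCR, can signal through protease-activated receptors. On blood cells EPCR marks primitive hematopoietic stem cells, in which UM171 is known to raise it. The question of the design is what the loss of EPCR does to expression programs of the leukemia cells, here before any UM171 was added.

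PROCR (ENSG00000101000, chr20:35172072-35216240, plus strand, GRCh38) was low in both kinds of DMSO library. The counts on the gene were 100, 121 and 105 in the control libraries and 81, 132 and 148 in the sgEPCR libraries. Scaled to CPM, the counts per 1000000 of each library's normalized total, these were 2.79, 3.36 and 2.56 CPM in the control and 4.42, 3.9 and 3.45 CPM in the sgEPCR libraries. The groups did not overlap, with the sgEPCR libraries above the control libraries. The log2 fold change was 0.42 (SE 0.12, adjusted p = 0.022), by edgeR's quasi-likelihood test with Benjamini-Hochberg adjustment over all genes tested. The difference was lost without control replicate 1 (adjusted p = 0.082), control replicate 3 (adjusted p = 0.095), sgEPCR replicate 1 (adjusted p = 0.060) or sgEPCR replicate 2 (adjusted p = 0.059). On the deposited TPM, which are lower for most genes in sgEPCR replicate 1, the difference was -0.06 on the log2(TPM + 1) scale (adjusted p = 0.91, limma). A gene-level count does not show whether an edited transcript still encodes the receptor, so the DMSO libraries alone do not check the edit. Under UM171 the sgEPCR libraries held 6.41, 5.71 and 6.19 CPM and the control libraries 38.1, 38 and 37.6 CPM, a log2 fold change of -2.63 (adjusted p = 1.9e-07). PPP1R12C, the gene that holds the AAVS1 site commonly cut as a neutral target, had 73.7, 79.2 and 74.4 CPM in the control and 42.8, 85.7 and 85.4 CPM in the sgEPCR libraries (-0.08 on the log2 scale, adjusted p = 0.88). Of the 8 genes nearest to PROCR that passed the filter, ACSS2, which makes acetyl-CoA from acetate (-0.54, adjusted p = 0.022), and ENSG00000279253 (-1.2, adjusted p = 0.0021) were lower, and the others did not pass the test.

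The 6 libraries held between 27996473 and 42679725 expected counts, and 15901 genes passed the filter on low counts. One library stood apart: in sgEPCR replicate 1, 35.935% of the counts lay on mitochondrial genes, against 7.771% to 9.39% in the other 5 libraries. In the same library the median difference from the control mean fell from 0.28 in the lowest of 5 equal classes of genes by GC content to -0.60 in the highest, on the log2 CPM scale, while replicates 2 and 3 stayed between -0.04 and 0.08 over these classes. The differences of replicates 2 and 3 from the control mean correlated at 0.872 across genes, and those of replicate 1 with them at 0.589 and 0.624. Across the 10870 genes with an average log2 CPM over 2, which are not independent, the median SD of log2 CPM was 0.053 in the control group and 0.208 in the sgEPCR group. A second library with many mitochondrial counts, sgEPCR UM171 replicate 2 at 32.173%, entered the fit that set the spread, so the counts of changed genes are also given without both.

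**Figure D1:**
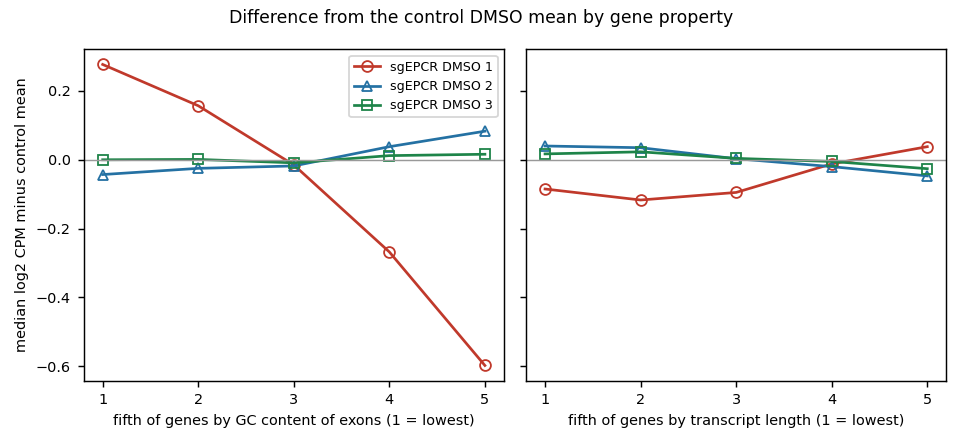
Median difference of each sgEPCR DMSO library from the mean of the 3 control DMSO libraries (y axis, log2 CPM), by 5 equal classes of the tested genes in order of GC content of their exons (left) or transcript length (right). Replicate 1 falls from 0.28 to -0.60 with rising GC content, while replicates 2 and 3 stay near 0.

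Many genes differed between the 2 kinds of DMSO library. At an adjusted p under 0.05, 2774 of the 15901 genes (17.4%) were higher and 2584 (16.3%) lower in the sgEPCR libraries. This balance rested on the scaling, with 1081 higher and 2944 lower under total count scaling and 193 higher and 1288 lower in the limma test on log2(TPM + 1). Without both libraries over 20% mitochondrial counts, 4935 (31.1%) were higher and 4840 (30.5%) lower of the 15890 of these genes that were tested again. At the study's own limits, an adjusted p under 0.0001 and more than a 2-fold change, 228 genes (1.43%) were higher and 224 (1.41%) lower. With the spread taken from the 6 DMSO libraries alone 1 gene was higher and 0 lower at these limits (edgeR, 6547 genes at an unadjusted p under 0.05), and without both libraries over 20% mitochondrial counts 508 were higher and 556 lower. The CPM of the 452 genes past these limits in the main fit did not overlap between the groups in any of them. Their choice on these same libraries largely fixed that, so it adds no support. Of all genes tested, 25.5% lay wholly higher and 27.5% wholly lower in the sgEPCR libraries. The genes higher at the study's limits had a median log2 fold change of 1.35, and those lower of -1.98. With 5 libraries fewer genes passed these limits: between 84 and 135 were higher and between 92 and 99 lower without any single one of control replicates 1, 2 and 3 or sgEPCR replicates 2 and 3, and 207 and 186 without sgEPCR replicate 1. All 452 genes, which were chosen on these libraries, kept an adjusted p under 0.05 in each of these fits. In bulk RNA a smaller share of cells of one kind and less RNA per cell cannot be told apart, which holds for every level given here.

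Individual genes are named by a fixed rule: the 15 protein-coding genes that rose most and the 15 that fell most at the study's limits, with an average log2 CPM over 2 and no overlap of the deposited TPM (transcript levels scaled to one total in every library) between the groups. The TPM condition was uneven, since the TPM of sgEPCR replicate 1 are lower for most genes. It was met by 133 of the 228 genes higher at these limits and by all 224 lower. Of all 15901 genes tested, 657 lay wholly higher and 6315 wholly lower in TPM. The 15 that rose included enzymes of glycolipid and lipid metabolism and regulators of cell shape. B4GALNT1, the enzyme that makes the gangliosides GM2 and GD2, stood at 5.08, 5.05 and 5.49 CPM in the control and 52.5, 53.5 and 51.7 CPM in the sgEPCR libraries. The 3 edited libraries lay within 2 CPM of each other and far above every control. The log2 fold change was 3.33 (SE 0.08, adjusted p = 7.2e-09), the smallest adjusted p among the genes named here. UGT3A2, a sugar-conjugating enzyme, went from 0.866, 0.943 and 0.927 CPM to 10.7, 8.68 and 9.34 CPM, a log2 fold change of 3.39 (SE 0.11, adjusted p = 1.3e-07). POPDC3, a cAMP-binding membrane protein, went from 0.475, 0.416 and 0.585 CPM to 5.4, 3.81 and 3.54 CPM (3.08). Both were under 1 CPM in every control library and above 3 CPM in every edited one.

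ENPP2 encodes autotaxin, the secreted enzyme that makes lysophosphatidic acid. It had 16.8, 17.4 and 16.9 CPM in the control and 144, 104 and 110.1 CPM in the sgEPCR libraries (2.81, adjusted p = 5.1e-06). SCD5, a stearoyl-CoA desaturase, had 1.76, 2.02 and 1.999 CPM and 16, 12 and 12.6 CPM (2.81). For both genes sgEPCR replicate 1 was the highest library, and replicates 2 and 3 alone were still above all controls. ETV5, an ETS factor downstream of ERK signaling, rose from 4.16, 3.41 and 3.15 CPM to 18.1, 19.4 and 18.6 CPM (2.39). TIAM1, which activates the GTPase Rac, rose from 0.894, 0.887 and 0.902 CPM to 4.64, 4.99 and 5.64 CPM (2.51), and PTPN3, a tyrosine phosphatase, from 1.56, 1.22 and 1.98 CPM to 8.78, 10.1 and 11.2 CPM (2.66). The other genes of the 15 were PAWR (2.68), MAGI1 (2.67), CACHD1 (2.49), the sialyltransferase ST6GALNAC3 (2.36), FAM81A (2.29), the chaperone CLGN (2.28) and CAV1, the main protein of caveolae (2.26).

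The 15 that fell included genes of heme breakdown, lipid uptake, leukotriene synthesis, the nuclear lamina and myeloid surface proteins. HMOX1, the enzyme that degrades heme, had 47.6, 59.1 and 56.4 CPM in the control libraries. In the sgEPCR libraries it had 0.491, 1.42 and 1.26 CPM. Every edited library was thus below 2 CPM where every control was above 40 CPM, a log2 fold change of -5.6 (SE 0.47, adjusted p = 1.2e-05). LPL, the lipase that frees fatty acids from lipoproteins, had 10.7, 12.3 and 10.7 CPM in the control and 0.273, 0.148 and 0.349 CPM in the sgEPCR libraries, a log2 fold change of -5.41 (SE 0.23, adjusted p = 3.0e-07). SLAMF7, a receptor of the SLAM family, had 6.59, 5.63 and 6.02 CPM and 0.109, 0.295 and 0.326 CPM (-4.49). LPL and SLAMF7 were under 1 CPM in every edited library.

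ALOX5 starts leukotriene synthesis from arachidonic acid. It had 7.54, 6.29 and 6.71 CPM in the control and 0.273, 0.384 and 0.443 CPM in the sgEPCR libraries (-4.15, adjusted p = 3.2e-07). LMNA, which encodes the A-type lamins of the nuclear envelope, had 16.7, 19.96 and 19.1 CPM and 0.818, 1.004 and 1.56 CPM (-3.98, adjusted p = 9.1e-06). GPNMB, a glycoprotein of macrophages and melanosomes, had 15.3, 15.7 and 15.4 CPM and 1.75, 1.39 and 1.58 CPM (-3.31). In each of these genes the lowest control library was several times the highest edited library. The mast cell tryptase TPSAB1 fell from 6.29, 6.29 and 6.998 CPM to 1.04, 0.886 and 0.955 CPM (-2.77), the matrix protein THBS1 from 8.83, 9.48 and 9.75 CPM to 1.2, 1.56 and 1.84 CPM (-2.57), and SH3PXD2B, a scaffold of podosomes, from 31.7, 31.8 and 32.5 CPM to 5.07, 5.14 and 5.68 CPM (-2.59). PLXDC2 (-3.2), LRRC25 (-2.95), ABLIM3 (-2.72), the autophagy receptor OPTN (-2.69), FGL2 (-2.61) and FAM171A1 (-2.55) made up the rest of the 15.

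**Figure D2:**
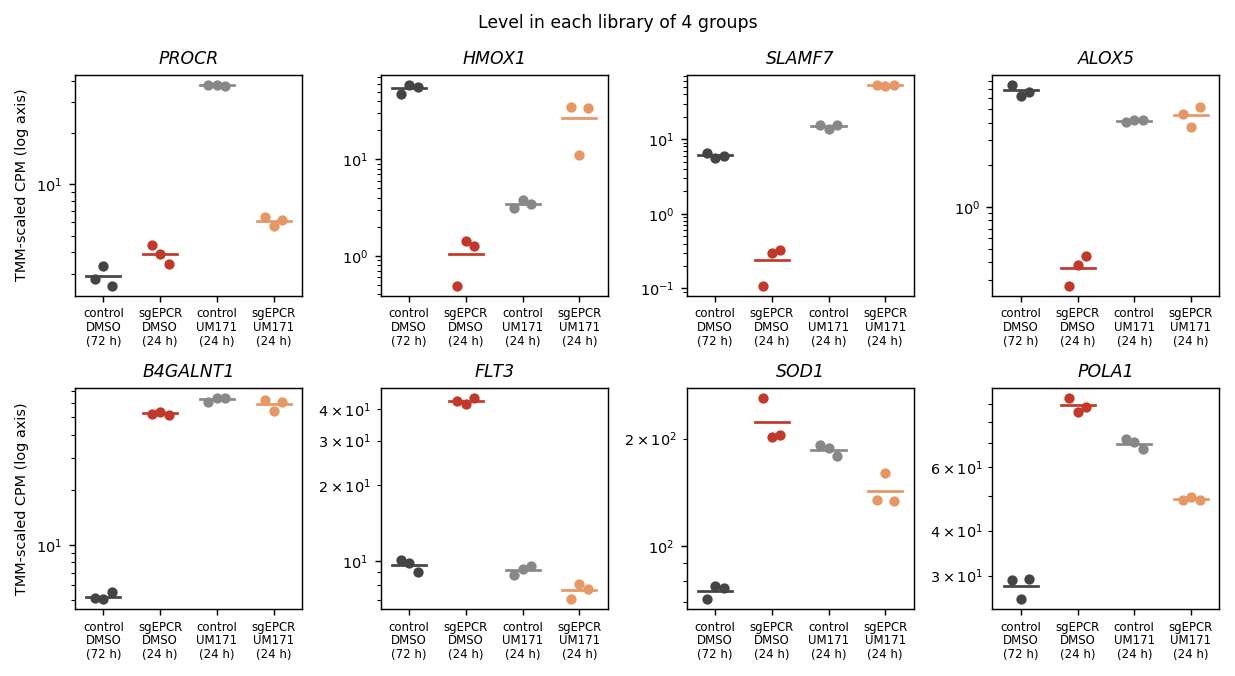
CPM (log axis) of 8 genes in each library of 4 groups (DMSO or UM171, control or sgEPCR), with each group's mean as a line and the labelled time under it. In DMSO, B4GALNT1, FLT3, SOD1 and POLA1 lie higher and HMOX1, SLAMF7 and ALOX5 lower in all 3 sgEPCR libraries, with no overlap between the groups.

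The genes the study displayed as markers of inflammation and detoxification gave a mixed picture in DMSO. IL1B, the main secreted inflammatory cytokine of myeloid cells, had 5.48, 5.1 and 5.17 CPM in the control and 2.29, 1.71 and 2.1 CPM in the sgEPCR libraries (-1.38 (SE 0.12, adjusted p = 1.7e-05)). CD86, the costimulatory ligand, had 2.35, 2.44 and 2.76 CPM and 0.546, 0.797 and 0.582 CPM (-1.95 (SE 0.19, adjusted p = 3.6e-05)). SOD1, the cytosolic superoxide dismutase, moved the other way, from 71.2, 77.4 and 76.3 CPM to 260.1, 202 and 204 CPM (1.57 (SE 0.11, adjusted p = 4.4e-06)). PTGS2, the inducible cyclooxygenase, fell from 2.49, 2.8 and 2.56 CPM to 1.75, 1.68 and 1.61 CPM (-0.65 (SE 0.18, adjusted p = 0.018)). FOSB (-0.24, adjusted p = 0.43) and NFKB2 (-0.01, adjusted p = 0.98) did not pass the test, and IL33 was at 0 or nearly 0 in all 6 libraries. The study chose these genes on libraries of this series, so their directions are not independent evidence.

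Genes of DNA replication rose together. The gene groups used from here on were curated lists, and a member rose or fell where its adjusted p was under 0.05. Of 53 S phase and replication genes tested, 42 rose and 1 fell, beside the 17.4% of all genes that rose and the 16.3% that fell, and their median log2 fold change was 0.68 against 0.00 over all genes. Without both libraries over 20% mitochondrial counts 51 rose and 1 fell, where 31.1% of all genes rose and 30.5% fell. Counts given below as without both libraries are to be read against these latter shares, and all others against 17.4% and 16.3%. POLA1, the catalytic subunit of DNA polymerase alpha, had 29.3, 25.8 and 29.3 CPM in the control and 93.3, 85.5 and 88.3 CPM in the sgEPCR libraries (1.66 (SE 0.07, adjusted p = 3.0e-07)). RRM2, the small subunit of ribonucleotide reductase, had 174, 177 and 176 CPM and 496, 529.7 and 545 CPM (1.58 (SE 0.07, adjusted p = 3.0e-07)). CDC45, part of the replicative helicase, had 27.6, 28.1 and 25.1 CPM and 90.8, 78.1 and 81.2 CPM (1.63 (SE 0.08, adjusted p = 3.7e-07)). In each of these genes the edited libraries were between 2 and 4 times the control libraries and close to each other. Cyclin E genes rose too, CCNE1 by 1.25 and CCNE2 by 1.11, as did the licensing factor CDC6 (1.08), the helicase subunit MCM6 (0.75) and the sliding clamp PCNA (0.47), though PCNA was at -0.02 on the log2(TPM + 1) scale. The transcription factor E2F1 itself had 34.6, 32.7 and 34.3 CPM in the control and 21.2, 50.9 and 47.8 CPM in the sgEPCR libraries, with replicate 1 below and replicates 2 and 3 above the controls, and did not pass the test (adjusted p = 0.64). MCM7, another helicase subunit, stayed within the control range in replicate 1 and was higher in replicates 2 and 3 (286, 306 and 296 CPM against 294, 535 and 532 CPM, adjusted p = 0.088).

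Most genes of G2 and mitosis rose. Of 56 tested, 41 rose and 0 fell, with a median of 0.52 in the fit, and 51 rose and 0 fell without both libraries over 20% mitochondrial counts. Their median difference from the control mean was 0.655, 0.371 and 0.429 in sgEPCR replicates 1, 2 and 3, beside 0.640, 0.744 and 0.774 for the S phase genes, and the difference between the lists was not tested. CCNA2, the cyclin of S phase and G2, had 112, 117 and 118 CPM in the control and 255, 221 and 229 CPM in the sgEPCR libraries (1.02 (SE 0.10, adjusted p = 4.3e-05)). CDK1, the kinase that drives entry into mitosis, had 99.8, 108 and 109.5 CPM and 146, 154 and 157 CPM (0.52 (SE 0.07, adjusted p = 1.7e-04)). The mitotic cyclins CCNB1 (0.28) and CCNB2 (0.36) rose too, although on the deposited TPM both were lower on average in the sgEPCR libraries (-0.37 and -0.13 on the log2(TPM + 1) scale). MKI67, the proliferation marker, had 953, 932 and 939 CPM and 2273, 1214 and 1282 CPM (0.76, adjusted p = 0.036), and replicate 1 was far above the other edited libraries. CDC20, which activates the anaphase-promoting complex, was at 0.02 and did not pass the test (adjusted p = 0.94).

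Promoters of some of these genes are shown because members of each list moved together and share known sequence elements. The stretches are the 250 bases before the RefSeq start site (GRCh38.p14), 5′ to 3′ on the strand of the gene. Capitals mark, on either strand, TTTGGCGC or TTTCCCGC, forms of the element that E2F factors bind, in the first pair, and TTTGAA, the core of the cell cycle homology region, or CCAAT, bound by NF-Y, in the mitotic genes. POLA1 lies at chrX:24693668-24693917 on the plus strand and MCM6 at chr2:135876444-135876693 on the minus strand. CCNB1 lies at chr5:69166900-69167149, CCNB2 at chr15:59104896-59105145 and CDK1 at chr10:60778081-60778330, all on the plus strand.
POLA1: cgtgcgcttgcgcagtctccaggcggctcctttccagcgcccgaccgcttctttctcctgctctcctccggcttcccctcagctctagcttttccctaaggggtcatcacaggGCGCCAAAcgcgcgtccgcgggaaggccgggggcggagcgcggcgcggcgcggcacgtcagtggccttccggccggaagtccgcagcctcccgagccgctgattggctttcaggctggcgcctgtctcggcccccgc
MCM6: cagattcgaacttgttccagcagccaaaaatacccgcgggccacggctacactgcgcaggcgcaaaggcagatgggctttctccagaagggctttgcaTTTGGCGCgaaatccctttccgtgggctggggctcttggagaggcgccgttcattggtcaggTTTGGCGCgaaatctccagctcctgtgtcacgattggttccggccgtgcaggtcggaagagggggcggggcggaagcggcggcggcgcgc
CCNB1: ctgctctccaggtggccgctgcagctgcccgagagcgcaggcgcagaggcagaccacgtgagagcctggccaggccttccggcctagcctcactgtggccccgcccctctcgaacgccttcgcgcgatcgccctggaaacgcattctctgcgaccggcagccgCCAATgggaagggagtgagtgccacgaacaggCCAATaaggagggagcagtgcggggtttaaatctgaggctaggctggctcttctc
CCNB2: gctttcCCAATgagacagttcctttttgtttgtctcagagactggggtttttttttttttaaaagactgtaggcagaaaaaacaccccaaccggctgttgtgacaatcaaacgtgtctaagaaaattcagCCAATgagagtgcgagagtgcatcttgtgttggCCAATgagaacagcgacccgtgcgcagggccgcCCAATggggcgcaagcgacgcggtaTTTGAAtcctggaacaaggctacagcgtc
CDK1: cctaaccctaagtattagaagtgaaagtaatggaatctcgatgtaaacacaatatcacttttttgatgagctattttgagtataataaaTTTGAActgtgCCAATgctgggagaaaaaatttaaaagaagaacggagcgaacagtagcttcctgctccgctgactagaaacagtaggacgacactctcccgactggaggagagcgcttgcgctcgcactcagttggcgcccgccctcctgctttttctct

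Counted in the full windows of RefSeq, which run on into the first bases of the transcript, the E2F forms were present in 19 of the 44 S phase promoters matched by symbol (43.2%) and in 3.66% of the 11053 promoters of all genes tested. TTTGAA was present in 33 of the 48 promoters of G2 and mitosis genes (68.8%) against 10.1% of all, and CCAAT in 70.8% of them against 36.7%. These are counts of letters in the windows and do not show that a factor was bound. Over the genes higher at the study's limits, whatever their list, the E2F forms were present in 4.21%, close to their share in all promoters.

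Most genes of the proteasome and of the nuclear-encoded respiratory chain rose. Of 36 proteasome subunit genes, 31 rose and 0 fell (median 0.66), and 35 rose and 0 fell without both libraries over 20% mitochondrial counts. PSMB2, a subunit of the catalytic core, had 111, 109 and 111 CPM in the control and 306, 257 and 254 CPM in the sgEPCR libraries (1.3 (SE 0.11, adjusted p = 1.4e-05)), and PSMD1, a subunit of the regulatory cap, had 162, 158 and 159 CPM and 334, 318 and 325 CPM (1.03 (SE 0.06, adjusted p = 1.4e-06)). PSMB5, the chymotrypsin-like catalytic subunit, was the exception among those named, at 0.30 (adjusted p = 0.32). Of 78 nuclear genes for subunits of the respiratory chain, 47 rose and 0 fell (median 0.54), and 73 rose and 1 fell without both libraries. NDUFS5 of complex I rose from 49.4, 44.7 and 48.2 CPM to 130.01, 112 and 113 CPM (1.32), SDHB of complex II from 76, 73.4 and 69.6 CPM to 126, 111 and 108 CPM (0.66) and UQCRQ of complex III from 24.8, 25.9 and 24.8 CPM to 45.9, 56.5 and 52.6 CPM (1.04). ATP5MF of the ATP synthase rose most among the named members, from 67.4, 69.9 and 67.7 CPM to 253, 142 and 148 CPM (1.4), with replicate 1 well above the other edited libraries. Of 79 mitochondrial ribosomal protein genes 27 rose and 0 fell, or 52 and 5 without both libraries, with a median of 0.26 that turned to -0.20 on the deposited TPM and to -0.01 under total count scaling. Of 80 cytosolic ribosomal protein genes 4 rose and 2 fell, with a median of 0.04, and 12 rose and 8 fell without both libraries.

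The genes encoded by the mitochondrial genome were far higher in 1 sgEPCR library. Their median log2 difference from the control mean was 3.03 in sgEPCR replicate 1, 0.08 in replicate 2 and 0.19 in replicate 3. None of the 15 passed the test at an adjusted p under 0.05, and without both libraries over 20% mitochondrial counts 5 rose and 2 fell. MT-ATP6, a subunit of the ATP synthase, had 6240.5, 4821 and 4964 CPM in the control libraries and 79120.0, 6904 and 7493 CPM in the sgEPCR libraries.

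Chaperones, sterol synthesis and amino acid supply also leaned to higher levels. Of 42 heat shock protein and chaperone genes 30 rose and 3 fell (36 and 4 without both libraries), among them HSP90AA1 (2131, 2206 and 2150.2 CPM against 4175, 3256 and 3499.5 CPM, 0.75) and the endoplasmic reticulum chaperone HSPA5 (636, 623 and 616 CPM against 983, 955 and 993 CPM, 0.64). The stress-inducible HSPA6 was one of the 3 that fell (-1.1, adjusted p = 0.0052). Of 36 genes of cholesterol synthesis and lipid regulation 20 rose and 2 fell (31 and 2 without both libraries). SCD, the main stearoyl-CoA desaturase, had 365, 336 and 343 CPM in the control and 707, 717 and 714 CPM in the sgEPCR libraries (1.03 (SE 0.07, adjusted p = 3.3e-06)), the desaturase FADS1 rose by 1.18 and SREBF1, the transcription factor of fatty acid synthesis, by 1.27. Of 32 ATF4 targets and aminoacyl-tRNA synthetases 16 rose and 2 fell (23 and 5 without both libraries), led by PSAT1, an enzyme of serine synthesis (76.3, 78.7 and 77 CPM against 212, 233 and 224 CPM, 1.53 (SE 0.07, adjusted p = 3.6e-07)). The medians of these groups, 0.45, 0.56 and 0.34, were below 0 on the deposited TPM, where the median of all genes was -0.32 on the log2(TPM + 1) scale.

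Defense against oxidants split by enzyme. Of 34 genes of peroxide and thiol defense 13 rose and 5 fell (23 and 9 without both libraries), and the median of 0.22 turned to -0.22 on the deposited TPM and -0.01 under total count scaling. Beside SOD1, catalase had 187, 185 and 186 CPM in the control and 271, 307 and 308 CPM in the sgEPCR libraries (0.67 (SE 0.08, adjusted p = 9.6e-05)). Thioredoxin (TXN) rose from 88.6, 92.8 and 92.5 CPM to 273, 183 and 183 CPM (1.22) and the peroxiredoxins PRDX1 and PRDX6 by 0.79 and 0.89. The thioredoxin reductase TXNRD1 (-0.27), the cystine transporter SLC7A11 (-0.68) and the glutamate-cysteine ligase subunit GCLC (-0.28) fell, while GCLM, the other subunit, was at -0.38 (adjusted p = 0.051). NQO1, a quinone reductase, had 22.2, 23.6 and 23.8 CPM in the control and 5.07, 6.35 and 6.52 CPM in the sgEPCR libraries (-1.95 (SE 0.16, adjusted p = 9.8e-06)). Of 28 glutathione transferase and phase 2 genes 9 rose and 5 fell (12 and 9 without both libraries), with GSTP1 (0.91) and MGST2 (1.21) among the higher and NQO1 and HMOX1 among the lower.

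FTH1, the heavy chain of the iron store ferritin, fell. It had 846, 801 and 803 CPM in the control and 213, 192 and 196 CPM in the sgEPCR libraries, with no overlap and little spread inside either group (-2.03 (SE 0.07, adjusted p = 1.4e-07)). The light chain FTL had 2206, 2064 and 2089 CPM and 915, 1646 and 1672 CPM and did not pass the test (adjusted p = 0.099). TFRC, the transferrin receptor that brings iron in, rose from 327, 321 and 332 CPM to 413, 477 and 488 CPM (0.49), as did ACO1, an iron regulatory protein when it carries no iron-sulfur cluster (0.77), though TFRC was at -0.04 on the log2(TPM + 1) scale. Over the 28 genes of iron and heme handling 7 rose and 5 fell (10 and 9 without both libraries), shares near those of all genes.

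Genes of antigen presentation by MHC class II fell in the majority. Of 14 class II genes and regulators 8 fell and 1 rose, with a median of -0.92, and 10 fell and 1 rose without both libraries over 20% mitochondrial counts. CIITA, the factor that switches class II genes on, had 53.3, 58.3 and 61.4 CPM in the control and 15.5, 22.6 and 22.2 CPM in the sgEPCR libraries (-1.51 (SE 0.17, adjusted p = 7.1e-05)). HLA-DMB, a chain of the molecule that loads peptide onto class II, had 4.41, 4.3 and 4.36 CPM and 0.655, 0.679 and 0.955 CPM (-2.48 (SE 0.17, adjusted p = 2.6e-06)), and its partner HLA-DMA 8.94, 8.48 and 9.7 CPM and 3.6, 3.78 and 3.19 CPM (-1.36 (SE 0.13, adjusted p = 2.8e-05)). HLA-DRA, the alpha chain of HLA-DR, had 185, 177 and 179 CPM and 117, 84.9 and 83.6 CPM (-0.92 (SE 0.12, adjusted p = 2.0e-04)). CD74, the chaperone of class II, did not follow, at 421, 403 and 399 CPM and 514, 378 and 379 CPM (adjusted p = 0.73). HLA genes share reads with near-identical copies, so the split between them is uncertain. The class II promoters hold CCAAT, the sequence of the Y box, in 9 of the 12 windows matched (75%), against 36.7% of all promoters. The count took a match anywhere in the window, on either strand. In lists that rose, CCAAT was in 63% (cholesterol synthesis and lipid regulation), 56.8% (S phase) and 32.8% (respiratory chain) of the windows. The 250 bases before the start site of HLA-DMA (chr6:32953098-32953347, minus strand, GRCh38.p14) are given as an example, with the element on either strand in capitals.
HLA-DMA: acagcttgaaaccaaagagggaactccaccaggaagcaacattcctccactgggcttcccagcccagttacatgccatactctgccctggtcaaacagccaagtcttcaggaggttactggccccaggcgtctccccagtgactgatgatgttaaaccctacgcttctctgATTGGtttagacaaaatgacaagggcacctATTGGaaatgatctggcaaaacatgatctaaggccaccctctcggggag

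Class I genes did not move as a block: of 18, 8 rose and 3 fell (11 and 4 without both libraries), among the latter HLA-B (-0.74) and HLA-E (-0.72). In both of these replicate 1 was the lowest library. The chaperone CALR was among those that rose (0.67, adjusted p = 0.0016).

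Genes of monocytes and macrophages fell more often than they rose. Of 35 monocyte and macrophage genes 18 fell and 3 rose (median -0.68), and 23 fell and 6 rose without both libraries over 20% mitochondrial counts. NCF1, the p47 subunit of the phagocyte oxidase, had 105, 103 and 93.9 CPM in the control and 48.6, 53.5 and 53.8 CPM in the sgEPCR libraries (-0.95 (SE 0.13, adjusted p = 2.9e-04)). CYBB, the membrane subunit of the same enzyme, went the other way, from 37.2, 32.9 and 35.2 CPM to 58.2, 44.1 and 44.9 CPM (0.48, adjusted p = 0.026), and was at -0.03 on the log2(TPM + 1) scale. TREM1, an activating receptor, fell from 2.57, 3.16 and 2.58 CPM to 0.327, 0.59 and 0.512 CPM (-2.48), and the integrin ITGAX, known as CD11c, from 37.5, 39.4 and 38.1 CPM to 10.3, 14.3 and 14.3 CPM (-1.55). The scavenger receptor CD36 was one of the 3 that rose, from 4.97, 4.41 and 5.1 CPM to 16.7, 12.8 and 11.9 CPM (1.51). LYZ, the lysozyme gene, did not pass the test (592, 668 and 632 CPM against 671, 717 and 765 CPM). Of 16 neutrophil granule protein genes, also of mature myeloid cells, 3 rose and 3 fell with a median of 0.00, and without both libraries 6 rose and 8 fell.

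Costimulatory and checkpoint genes fell with them. Of 25 genes of the SLAM family and of costimulatory and checkpoint ligands 13 fell and 2 rose (median -0.97), or 15 and 3 without both libraries. Beside SLAMF7 and CD86, VSIR, which encodes the checkpoint protein VISTA, had 139, 144 and 140.03 CPM in the control and 16.3, 37.9 and 37.4 CPM in the sgEPCR libraries (-2.2 (SE 0.36, adjusted p = 9.0e-04)). HAVCR2, which encodes TIM-3, had 4.36, 5.21 and 3.95 CPM and 0.491, 0.856 and 0.908 CPM (-2.52 (SE 0.19, adjusted p = 6.5e-06)), and CD84 106, 105 and 114 CPM and 48.8, 41.1 and 41.2 CPM (-1.31 (SE 0.09, adjusted p = 4.6e-06)). Of 26 integrin and adhesion genes 11 fell and 2 rose (12 and 8 without both libraries). PECAM1, the adhesion molecule CD31, went from 75.7, 80.2 and 78.8 CPM to 16.9, 13.7 and 13.6 CPM (-2.41 (SE 0.09, adjusted p = 2.1e-07)). Mast cell, basophil and eosinophil genes fell in 6 of 14 with 1 rise (6 and 2 without both libraries), among them SIGLEC6 (4.64, 4.13 and 4.19 CPM against 0.273, 0.236 and 0.349 CPM, -3.88). Their median of -0.39 was above 0 when a minimum of 10 counts in every library was asked for, which removed low genes.

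Progenitor genes moved in both directions. FLT3, the growth factor receptor often mutated in acute myeloid leukemia, had 10.03, 9.76 and 9.05 CPM in the control and 43, 42 and 44.3 CPM in the sgEPCR libraries (2.17 (SE 0.08, adjusted p = 2.1e-07)). MPO, the peroxidase of the granules of early myeloid cells, rose from 5.48, 5.43 and 5.02 CPM to 17.7, 18.8 and 19 CPM (1.8 (SE 0.11, adjusted p = 1.8e-06)). CD34, the surface marker of stem and progenitor cells, fell from 8.996, 8.68 and 9.53 CPM to 2.84, 2.01 and 2.05 CPM (-2.0 (SE 0.16, adjusted p = 9.2e-06)). The homeobox genes HOXA7 (1.98) and HOXA9 (1.33) and the repressor BCL11A (1.44) rose, each highest in replicate 1, while the partner MEIS1 did not pass the test (0.42, adjusted p = 0.078). SPI1, which encodes the myeloid factor PU.1, fell from 347, 315 and 327 CPM to 183, 202 and 193 CPM (-0.77). Over the 32 stem and progenitor genes 12 rose and 4 fell (15 and 10 without both libraries), with a median of 0.25 that was below 0 on the deposited TPM and under total count scaling.

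Cytokines, their receptors and the growth signals of the line leaned lower. Of 32 cytokine and chemokine genes 8 fell and 3 rose (14 and 4 without both libraries), and of 34 receptor genes 14 fell and 5 rose (19 and 7). CXCL8 had 159, 174 and 177 CPM in the control and 86.3, 104 and 103 CPM in the sgEPCR libraries (-0.80, adjusted p = 2.3e-04). IL1RN, the receptor antagonist that blocks IL-1, fell about as far as IL1B, from 210.1, 189 and 190.4 CPM to 84.7, 76.6 and 82.8 CPM (-1.27 (SE 0.09, adjusted p = 3.3e-06)). CXCR4, the chemokine receptor that holds stem cells in the marrow, had 30.4, 25.1 and 27.1 CPM and 6.22, 5.11 and 5.71 CPM (-2.28 (SE 0.12, adjusted p = 7.9e-07)). IL18R1, a chain of the IL-18 receptor, rose from 1.73, 1.89 and 1.93 CPM to 7.04, 7.14 and 7.78 CPM (1.99). CSF2RA, the chain that binds GM-CSF, fell from 14.4, 14.2 and 12.7 CPM to 5.35, 5.85 and 6.34 CPM (-1.23), and the shared chain CSF2RB from 43.6, 42.8 and 44.3 CPM to 29.1, 35.9 and 32.4 CPM (-0.42). Of 20 genes of the GM-CSF and STAT5 response 6 fell and 0 rose, against 14 and 4 without both libraries and 13 and 0 with a GC offset. Those that fell included MYC, from 958, 894 and 914 CPM to 529.7, 574 and 587 CPM (-0.71), and BCL2L1 (-0.48), while CISH, a feedback inhibitor induced by STAT5, did not pass the test (-0.44, adjusted p = 0.14).

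Of 28 subunit, inhibitor and feedback genes of the NF-kB system 5 fell and 0 rose, beside the 16.3% of all genes that fell. Without both libraries over 20% mitochondrial counts 12 fell and 4 rose, beside 30.5% and 31.1%, and with a GC offset 8 fell and 2 rose. TRAF1, an adaptor of TNF receptors, had 9.47, 9.26 and 9.48 CPM in the control and 3.11, 4.37 and 4.17 CPM in the sgEPCR libraries (-1.26, adjusted p = 8.1e-04), and the deubiquitinase CYLD 37.5, 42.8 and 38.6 CPM and 22.1, 24.5 and 25.5 CPM (-0.72, adjusted p = 6.3e-05). The inhibitor NFKBIA (0.09, adjusted p = 0.37) and TNFAIP3, known as A20 (-0.22, adjusted p = 0.17), did not pass. Of 169 Hallmark genes of TNF signaling through NF-kB 47 fell and 20 rose (80 and 31 without both libraries), and of 135 Hallmark inflammatory response genes 38 fell and 24 rose (62 and 38), in the versions of these lists that the study's supplement prints. Immediate early genes were mixed, with 8 of 34 lower and 7 higher, near the shares of all genes, and 17 lower and 9 higher without both libraries. JUN fell from 57.8, 63.8 and 64.9 CPM to 36.9, 40.5 and 40.8 CPM (-0.66) and ATF3 from 6.45, 6.68 and 7.1 CPM to 3.76, 3.63 and 3.94 CPM (-0.83), while DUSP6, a phosphatase that ERK signaling induces, rose from 53.8, 57.3 and 54.7 CPM to 82.1, 73.7 and 77.5 CPM (0.49). Interferon-stimulated genes fell in 16 of 42 and rose in 6 (20 and 10 without both libraries), with RSAD2 (-2.54) and IFIT2 (-2.07) lower and HERC5 (1.3) higher.

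The protein C and coagulation genes around PROCR fell more often than they rose, 11 against 4 of 21, or 12 against 6 without both libraries. THBD, the thrombomodulin with which EPCR works, had 21, 22.3 and 21.2 CPM in the control and 13.7, 14.6 and 14 CPM in the sgEPCR libraries (-0.61 (SE 0.08, adjusted p = 2.2e-04)). F2R, the protease-activated receptor PAR1, rose from 21.7, 20.4 and 21.1 CPM to 43, 40.3 and 38.3 CPM (0.94 (SE 0.10, adjusted p = 4.2e-05)). S1PR3, a sphingosine 1-phosphate receptor, fell from 63.4, 62.7 and 63.2 CPM to 30.1, 33.8 and 33.5 CPM (-0.96). The urokinase PLAU fell from 49.5, 48.2 and 48.5 CPM to 20.2, 30.1 and 28.3 CPM (-0.89). Tissue factor (F3) was at about the same level in all 6 libraries (-0.02, adjusted p = 0.96).

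Among metabolic and stress genes outside these groups, glycolysis and hypoxia genes were split, with 12 of 39 higher and 8 lower (18 and 12 without both libraries). LDHA, lactate dehydrogenase A, rose from 909, 906 and 895 CPM to 2018, 1384 and 1409 CPM (0.83), whereas the aldolase ALDOC fell from 185, 189 and 182 CPM to 20.2, 39.4 and 37.2 CPM (-2.52) and GPI, which interconverts hexose phosphates, from 922, 905 and 896 CPM to 306, 480.1 and 466 CPM (-1.12). In both of the latter replicate 1 was the lowest library. Of 34 p53 target genes 9 fell and 1 rose, or 21 and 6 without both libraries, with CD82 at -2.38 (adjusted p = 1.6e-04), while CDKN1A (-0.36, adjusted p = 0.25) and MDM2 (-0.17, adjusted p = 0.20) did not pass. Of 30 BCL2 family genes and apoptosis regulators 8 fell and 2 rose (15 and 8 without both libraries), among the former the death-promoting BMF, from 74.8, 77.8 and 76.4 CPM to 25, 39.9 and 40.1 CPM (-1.12).

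**Figure D3:**
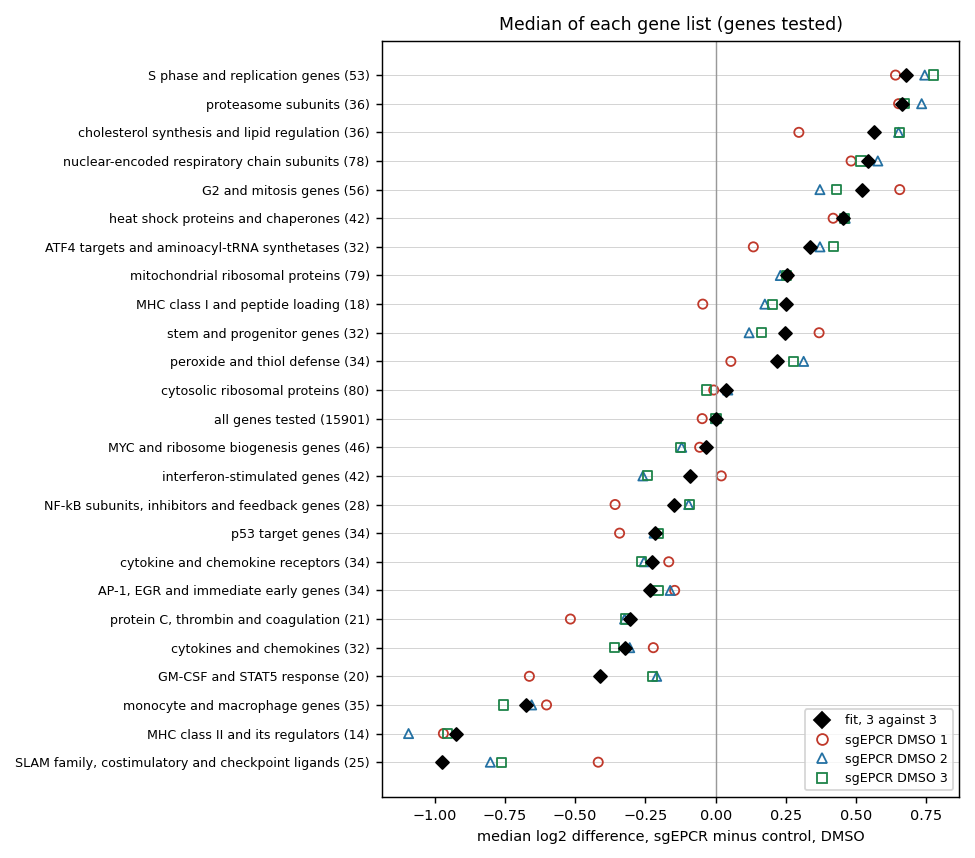
Median log2 fold change (sgEPCR minus control, DMSO) over the tested members of the gene groups, with the median difference of each sgEPCR DMSO library from the control mean as open symbols and the number of genes in brackets. Proteasome, S phase and respiratory chain groups lie between 0.48 and 0.77 in each library, and MHC class II, monocyte and SLAM family groups lie below 0.

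Markers of cell types outside the myeloid and erythroid lineages were low. The 8 fibroblast markers were all under 1 TPM in the 6 libraries. Of 12 T and NK cell markers 10 were under 1 TPM, and the summed level of the list was between 22.78 and 23.98 TPM in the control and between 5.62 and 14.84 TPM in the sgEPCR libraries. The 8 endothelial markers summed to between 43.08 and 47.05 TPM in the control and between 5.55 and 8.29 TPM in the sgEPCR libraries, a sum held by PECAM1, while CDH5 and EMCN were at 0. The B cell sum was between 9.68 and 10.7 TPM against between 8.13 and 21.85 TPM and was held by CD79A, which passed the test as higher, while the B cell marker MS4A1 did not pass the filter on low counts. The epithelial sum was between 2.22 and 2.98 TPM against between 1.39 and 1.83 TPM. The markers of the line itself, such as PTPRC, CD33 and SPI1, summed to between 1986.92 and 2065.01 TPM in the control and between 931.36 and 1541.89 TPM in the sgEPCR libraries, and KIT and ANPEP were under 1 TPM. The lowest sum was that of sgEPCR replicate 1, whose TPM are lower for most genes. Of the 14 line markers tested, 8 fell and 2 rose (median -0.65). Without both libraries over 20% mitochondrial counts 11 fell and 3 rose. Erythroid genes, 21 of 30 of them under 1 TPM, summed to between 547.75 and 573.74 TPM in the control and between 253.96 and 655.65 TPM in the sgEPCR libraries, and 3 of the 12 tested rose and 2 fell. Megakaryocyte and platelet genes, 14 of 21 under 1 TPM, summed to between 322.97 and 337.31 TPM and between 158.86 and 301.72 TPM, and 2 of the 10 tested rose and 2 fell. The part of any of these cell types in the differences was not tested.

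**Figure D4:**
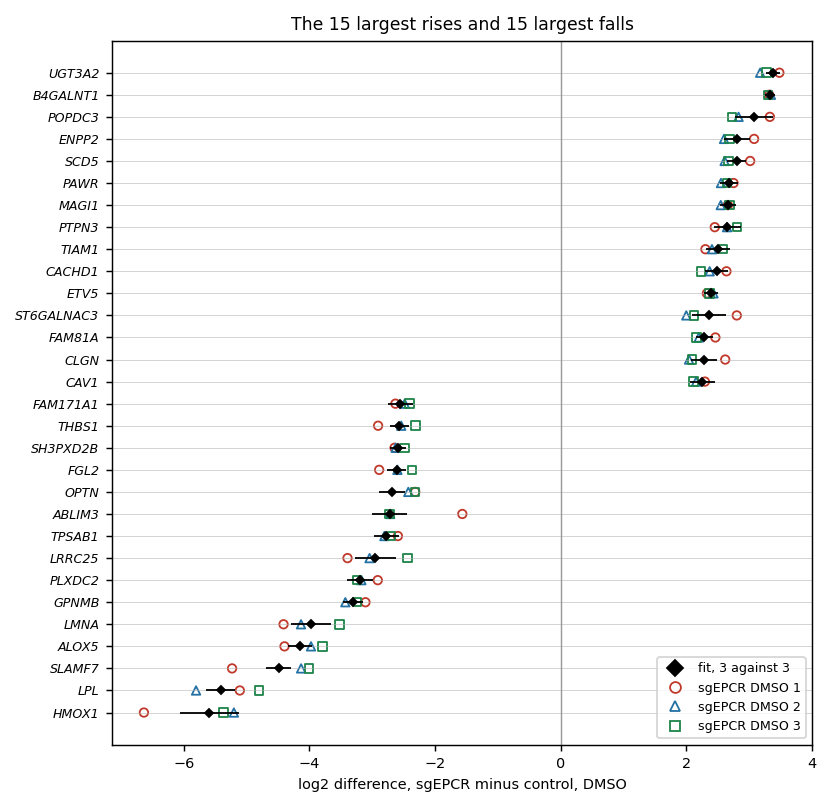
Difference of each sgEPCR DMSO library from the control mean (log2 CPM) for the 15 rises and 15 falls named in the text, with the fitted log2 fold change and its SE as a diamond and bar. The naming rule asked for no overlap between the groups, so the 3 libraries lie on the same side of 0 for every gene shown, from UGT3A2 at the top to HMOX1 at the bottom.

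The same genotype comparison under UM171, with both kinds of cell labelled 24 h and no library in common with the DMSO comparison, gave different calls. Under UM171, 3313 genes (20.8%) were higher and 3531 (22.2%) lower in the sgEPCR libraries at an adjusted p under 0.05, and the difference between the DMSO and UM171 fold changes passed at that limit in 7158 genes (45.0%). Of the 228 genes higher in DMSO at the study's limits, 37 were also higher under UM171 at an adjusted p under 0.05 (16.2%), 112 were lower and 79 did not pass, and the difference between the 2 comparisons passed in 222. Of the 224 genes lower in DMSO, 55 were also lower under UM171 (24.6%), 96 were higher and 73 did not pass, and the difference passed in 217. These genes were chosen on the DMSO libraries that also enter that difference. The 222 and 217 were thus largely fixed by the choice and add no support. The shares that kept their direction were close to the shares of all genes that moved that way under UM171, 20.8% and 22.2%. More genes turned than kept their direction. The 112 of 228 that were lower under UM171 stand beside 22.2% of all genes lower there. The 96 of 224 that were higher stand beside 20.8% of all genes higher.

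A few of the named genes moved in the same direction in both comparisons. LPL fell under UM171 too, from 12.8, 12.2 and 10.1 CPM to 0.859, 0.958 and 0.872 CPM (-3.71, adjusted p = 4.4e-07). ENPP2 rose in both, from 112, 94.2 and 158 CPM to 400.0, 527 and 403 CPM under UM171 (1.87). NQO1 was lower in both (-1.01 under UM171, adjusted p = 3.6e-04), as were CD34 (-1.06), HLA-DMB (-1.39), BPI, a granule protein (-1.35 in DMSO and -1.26 under UM171), and MYC (-1.46). CAV1 and SQLE, an enzyme of cholesterol synthesis, rose in both, at 0.98 and 0.75 under UM171.

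Others turned. HMOX1, at most 1.42 CPM in the sgEPCR DMSO libraries, was at 34.9, 10.9 and 33.6 CPM in the sgEPCR UM171 libraries, above the 3.14, 3.8 and 3.4 CPM of the control UM171 libraries (2.95). SLAMF7 was at 53.9, 51.3 and 53.5 CPM under UM171 in the sgEPCR and 15.7, 13.7 and 15.7 CPM in the control libraries (1.82). MPO was higher in DMSO and lower under UM171 (-2.58), and IL1B lower in DMSO and higher under UM171 (1.27). The S phase group had a median of 0.68 in DMSO and -0.55 under UM171, and G2 and mitosis genes 0.52 and -0.69. Proteasome subunits had medians of 0.66 and -0.44, respiratory chain subunits 0.54 and -0.34, and the Hallmark genes of TNF signaling -0.19 and 0.76. MHC class II was lower in both comparisons, at -0.92 and -0.55. The MYC and ribosome biogenesis genes, with a median of -0.04 in DMSO, were lower under UM171 in 38 of 46.

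**Figure D5:**
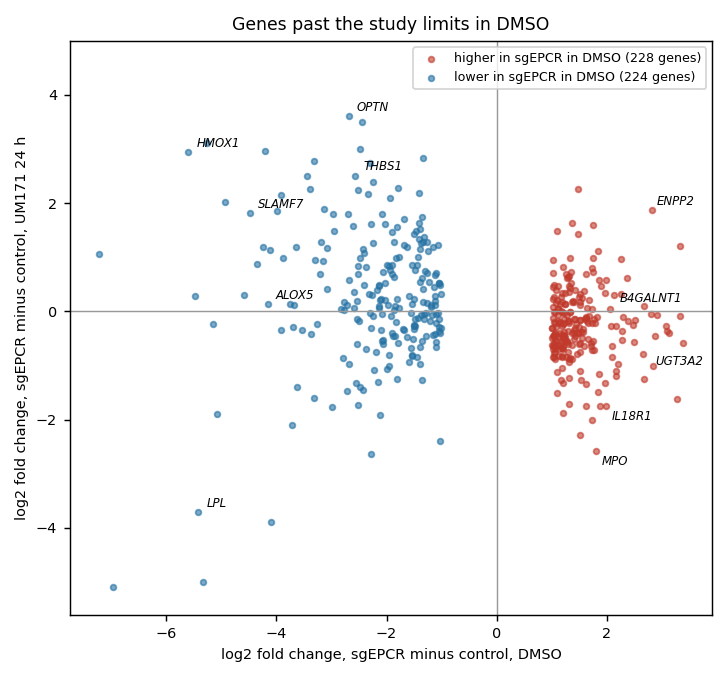
Log2 fold change between sgEPCR and control libraries in DMSO (x axis) and in UM171 at 24 h (y axis) for the genes past the study's limits in DMSO, with named genes marked. LPL lies low and ENPP2 high on both axes, while HMOX1 and SLAMF7 are low in DMSO and high under UM171.

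The control libraries at each labelled UM171 time show where these levels lie in cells without the EPCR guide, on a scale set over all 21 libraries (mean ± SD, n = 3). LPL in control cells stayed at 12.3 ± 0.731, 12.3 ± 1.54, 13.8 ± 1.72 and 11.7 ± 0.86 CPM after 6, 24, 48 and 72 h in UM171, beside 11.8 ± 0.948 CPM in DMSO. In edited cells it was at 0.272 ± 0.108 CPM in DMSO and 0.96 ± 0.0821 CPM in UM171, below every control group. FLT3 in control cells was at 10.1 ± 0.524 CPM in DMSO and at most 11.8 ± 0.308 CPM, at 6 h, in UM171, while the edited cells held 45.7 ± 1.46 CPM in DMSO and 8.16 ± 0.725 CPM in UM171.

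For other genes the control level at 24 h of UM171 was nearer to that of the edited DMSO cells than the control level in DMSO was. HMOX1 was at 57.1 ± 6.36 CPM in control DMSO cells and 42.2 ± 2.11, 3.63 ± 0.353, 7.44 ± 1.12 and 4.71 ± 0.382 CPM in the 4 UM171 groups, all above the 1.11 ± 0.51 CPM of edited DMSO cells. B4GALNT1 in control cells was at 66.3 ± 1.89 CPM after 24 h of UM171 and 18.4 ± 0.349 CPM after 72 h, against 5.47 ± 0.262 CPM in DMSO and 55.7 ± 1.19 CPM in edited DMSO cells. SOD1 in control cells was at 197 ± 8.0 CPM after 24 h and 82.7 ± 1.72 CPM after 72 h of UM171, beside 78.8 ± 3.51 CPM in DMSO and 236 ± 39.2 CPM in edited DMSO cells. For SOD1 and B4GALNT1 the control level at 24 h of UM171 was thus well above, and at 72 h nearer to, that of the control DMSO libraries, which are labelled 72 h. The proteasome gene PSMB2 had 297 ± 4.41 CPM at 24 h and 111 ± 2.83 CPM at 72 h beside 116 ± 1.15 CPM in control DMSO and 289 ± 36.3 CPM in edited DMSO cells, and POLA1 had 73.5 ± 2.65, 42.7 ± 0.422, 29.6 ± 2.09 and 94.4 ± 5.83 CPM in these 4 groups. Of these 5 genes only PSMB2 had a range over the edited DMSO libraries that overlapped the range of the control libraries at 24 h. Not every gene came back towards its DMSO level at 72 h. ETV5 in control cells averaged 43.89 CPM after 24 h and 64.88 CPM after 72 h of UM171, beside 3.755 CPM in DMSO. In the same order ST6GALNAC3 averaged 20.78, 61.35 and 3.601 CPM, and MAGI1 10.96, 15.51 and 1.937 CPM. Of the 15 named rises, these genes and SCD5 had a higher mean at 72 h than at 24 h, and the others a lower mean. No control library in DMSO is labelled 24 h, so the part of culture time in these differences was not tested.

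All nuclear chromosomes listed, 1 to 22 and X, held genes past the study's limits in both directions. The median log2 fold change of the nuclear chromosomes lay between -0.14, on chromosome 19, and 0.12, on chromosomes 4 and 13. On chromosome 19 the median difference from the control mean was -0.374 in sgEPCR replicate 1, -0.009 in replicate 2 and -0.046 in replicate 3. At the study's limits 32 of the 224 lower and 4 of the 228 higher genes lay there, beside 1171 of the 15901 genes tested. Sliding windows of 50 genes, 400 in all, were taken over tested genes with an average log2 CPM over 2. Their median difference from the control mean lay between -0.594 and 0.549 in sgEPCR replicate 1. It lay between -0.39 and 0.278 in replicate 2 and between -0.353 and 0.272 in replicate 3. One stretch passed 0.25 in the same direction in all 3 libraries, chr19:51097606-53876435, at -0.272, -0.39 and -0.353. Genes higher at the study's limits were longer than all genes tested, with a median transcript length of 2860 bases against 2051, and their median GC content was 45.5% against 47.6%. Genes lower at these limits had a median length of 2124 bases and a GC content of 47.6%. Their median average log2 CPM was 2.53, against 4.57 for the higher genes and 4.14 for all genes tested. In the lowest of 5 equal classes by that level, the median log2 fold change was -0.31 (-0.428, -0.252 and -0.212 in sgEPCR replicates 1 to 3). In the highest class it was 0.11 (0.168, 0.056 and 0.067). The part of expression level in the falls was not tested.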

How the data were processed

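RNA was extracted with Trizol and columns, and stranded polyA libraries were sequenced. Per the submitters' processing notes, the authors used CASAVA 1.8.2, Trimmomatic 0.35, STAR 2.5.1b and RSEM 1.2.28 with GRCh38, while the study's methods name kallisto and sleuth for its RNA sequencing. The deposited expected counts are RSEM's estimates per gene, and the deposited TPM are RSEM's transcript levels scaled to one total in every library, mitochondrial genes included, so a library rich in mitochondrial RNA has lower TPM elsewhere. TPM were used for non-overlap in the naming rule, for markers and for an alternative test.

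Expected counts were rounded, and 45 duplicate entries of the second pseudoautosomal copy were summed with the first, which left 58174 gene identifiers. Genes were filtered with filterByExpr, libraries scaled by TMM and 12 libraries in 4 groups (control and sgEPCR, DMSO and UM171 24 h) fitted with edgeR 4.0.16 (R 4.3.3, quasi-likelihood, 8 residual degrees of freedom), with Benjamini-Hochberg adjustment over 15901 genes. The common biological coefficient of variation was 0.187. The labels do not say that replicates came from separate cultures, so p-values measure the spread between these libraries. Libraries of a group differed by more than counting noise. A count of 3 in a library corresponds to between 7.03e-06% and 1.07e-05% of the counts in the 6 libraries, which covers counting error only.

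Named genes were PROCR, PPP1R12C, genes the study names, the 15 largest rises and falls by the rule in the report, members of gene lists by size or role, and neighbours of PROCR. A search for genes set apart in 1 sgEPCR library and in the UM171 library of the same number found 4 genes. All were set apart in number 2, whose UM171 library held 32.173% mitochondrial counts. The labels do not say that equal numbers mean the same clone. Across genes, sgEPCR DMSO replicate 1 deviated with sgEPCR UM171 replicate 2 (correlation 0.688) and against sgEPCR UM171 replicate 1 (-0.609). The members and lists were chosen with earlier results of these data known. The edgeR fit was set against DESeq2 1.42.0, a limma 3.58.1 test of log2 TPM (pseudocounts 1 and 0.1), other scalings, filters and sample sets, length and GC offsets and a replicate block. One more, without both libraries over 20% mitochondrial counts, was chosen after seeing the data. Scripts were tested on simulated counts. Guide sequences are not shown here. Values of a few named genes are not reported here.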

Additional observations from a re-analysis of the deposited data

Results flagged for a closer look

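The genotype difference in DMSO differed from that under UM171, by the interaction term of the edgeR fit at an adjusted p under 0.0001 and more than a 2-fold change of the fold change, for 30 of the genes named by size or by the study. Each value given here is the log2 fold change in DMSO minus that under UM171. The 3 control libraries and the 3 sgEPCR libraries are separate in the 2 comparisons, but the control libraries are labelled 72 h in DMSO and 24 h in UM171, so labelled time and compound differ together between the 2 comparisons for control cells.

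PROCR itself differed by 3.06. Genes higher in sgEPCR cells in DMSO and lower under UM171 were UGT3A2 (3.97), PAWR (3.93), PTPN3 (3.44), CACHD1 (3.06) and SOD1 (1.95). Genes higher in DMSO that did not pass the test under UM171 were B4GALNT1 (3.42), POPDC3 (3.36), SCD5 (2.85), TIAM1 (2.67), CLGN (2.64), MAGI1 (2.58), ETV5 (2.56) and FAM81A (2.4). Genes lower in DMSO and higher under UM171 were FGL2 (-4.19), GPNMB (-4.25), HMOX1 (-8.54), LMNA (-5.83), LRRC25 (-4.43), OPTN (-6.3), PLXDC2 (-4.48), SLAMF7 (-6.3) and THBS1 (-5.08), and genes lower in DMSO that did not pass under UM171 were ABLIM3 (-2.83), ALOX5 (-4.29), SH3PXD2B (-2.66) and TPSAB1 (-2.8). Of the genes the study names, IL1B differed by -2.65, PTGS2 by -2.56 and FOSB by -4.63, and FOSB did so while it did not pass the test in DMSO. Among the 236 other named genes 87 differed likewise. The share of all genes past these limits was not counted, while 45.0% passed at an adjusted p under 0.05 alone. Many of the named genes were chosen by the size of their DMSO difference, which enters the interaction term. These counts therefore add no support. No rule for single outlying libraries in groups of 3 was used in flagging these genes.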

How the results depend on the processing

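At the study's limits, 228 genes were higher and 224 lower. These counts were 506 and 560 with DESeq2, 471 and 516 with all 21 libraries in the fit, 508 and 556 without both libraries over 20% mitochondrial counts, 64 and 143 under total count scaling, 80 and 77 with the replicate number as a block, and 1 and 0 with only the 6 DMSO libraries, where 6547 genes had an unadjusted p under 0.05 (edgeR). A GC offset gave 318 and 417. Leaving out 1 library gave 84 to 207 higher and 92 to 186 lower. The limma test on TPM gave 0 and 12 with a pseudocount of 1 and 0 and 3 with 0.1, with 4235 and 4261 genes at an unadjusted p under 0.05. A limit of an adjusted p under 0.05 with more than a 2-fold change gave 758 and 1087. In every one of these fits, and wherever they were tested, all 452 genes kept their direction, and they kept an adjusted p under 0.05 except on TPM, where 283 (pseudocount 1) and 288 (0.1) did. The 452 genes were chosen on libraries that these fits use again, which largely fixed this, so it adds no support. At an adjusted p under 0.05, 2774 genes were higher and 2584 lower. These counts were 193 and 1288, or 201 and 1249, on TPM with the 2 pseudocounts, where the median of all genes was -0.324 and -0.456. They were 1081 and 2944 under total count scaling (median -0.249), 3241 and 4077 with the GC offset and 4958 and 4910, of 16360 genes tested, without both libraries over 20% mitochondrial counts. The cause of these shifts was not tested.

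PROCR was at 0.42 and stayed past the threshold in 9 of the alternatives that keep all 6 libraries or drop both libraries rich in mitochondrial counts. It was at 0.357 (upper quartile scaling), 0.155 (total count), 0.428 (no filter), 0.426 (only the 6 DMSO libraries) and 0.366 (length offset) without passing, between 0.340 and 0.541 when 1 library was left out, and -0.0577 and -0.0822 on TPM. On TPM with pseudocounts of 1 and 0.1, fold changes of these genes also turned: ASNS (-0.0107 and -0.0138), CCNB1 (-0.370 and -0.375), CCNB2 (-0.132 and -0.135), CYBB (-0.0258 and -0.0306), DDIT3 (-0.0251 and -0.0342), PCNA (-0.0186 and -0.0190), PROS1 (-0.0636 and -0.0722) and TFRC (-0.0413 and -0.0426), and DUSP6 with 0.1 alone (-0.00145). Medians of 10 of 42 gene lists turned on TPM, 7 under total count scaling, 3 under a minimum of 10 counts per library, 2 with only the 6 DMSO libraries and 1 without sgEPCR replicate 2.

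The groups share replicate numbers 1 to 3, but same-numbered control and sgEPCR DMSO libraries did not deviate together (correlations of 0.037, -0.008 and 0.004 across genes), so the numbers were not taken as pairs. The replicate block moved the adjusted p under 0.05 counts to 2368 and 2245 and PROCR to 0.427 (adjusted p = 0.036).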
